A study of Prunus avium with 27 samples.

Results

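Among the regions for which H3K4me3 was quantified in sweet cherry flower buds, 260 carried no gene identifier, spanned 2000 bp and had a higher signal in January than in October. They are 1.14% of the 22806 regions of that length without an identifier, and the tables list 25635 regions in all. They were selected on the signal itself. Each library was scaled to the same sum over all regions, and a region was kept when both January libraries stood at 20 or more, both stood above both October libraries, and the January mean of log2(signal + 1) exceeded the October mean by at least 0.7 (the gain). Of the 11910 regions that reached 20 in both January libraries, 2.18% met the other conditions. Because these values selected the regions, the October to January gain is described below without a test, and the RNA, which the selection did not use, is tested.

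H3K4me3 is histone H3 trimethylated at lysine 4. Methyltransferases of the COMPASS and Trithorax type deposit it, and in plants as in animals it lies over the 5′ ends of genes that are being transcribed. Flower buds of temperate fruit trees are formed in summer, stay dormant through autumn and winter, and become able to grow once they have received enough chilling.

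The buds came from the cultivar Burlat and were collected on 21 October 2014 (date 1, labelled dormant), 5 December 2014 (date 2, labelled dormant) and 27 January 2015 (date 3, labelled non-dormant). The dates are 45 and 53 days apart, and the label and the date cannot be told apart, since January is the only date labelled non-dormant. The series holds 27 samples from the same orchard branches, of which 9 RNA libraries (replicates 1 to 3 at each date) and 6 H3K4me3 libraries (replicates 2 and 3 at each date) were used, and 12 chromatin libraries of total H3 and input were not analysed here. All groups are untreated, of 1 cultivar and 1 winter. Whole buds were frozen and ground, so each library mixes the tissues of the bud, and fewer cells of a type and less mark or RNA per cell cannot be told apart. The labels do not say that the replicates are separate trees, and the p-values below then reflect only how far these samples differ, which may be technical. Markers of bud tissues could not be checked, because the gene identifiers are not paired with names.

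The H3K4me3 signal is the authors' normalised value, called TMM in the tables. It corresponds to 14216613 to 28126160 recovered reads per library, and 25.9% to 32.8% of all regions stand at the lowest value of their library. RNA is given in TPM, a share of all transcripts that keeps no depth. Positions are as the tables give them. The sources used here do not give the genome build, and the positions, starts and lengths of genes may differ from those in sweet cherry.

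In the gaining regions the median scaled signal was 44.2 and 55.6 in the October libraries (replicates 2 and 3), 76.4 and 78.9 in December and 104 and 103 in January. The medians thus stood in the order of the dates. Over the 11910 regions marked in January the corresponding medians lay between 196.9 and 199.9 in every library, so at the median the gaining regions stood below the marked regions on all 3 dates. The spread was wide, and 135 and 137 of the 260 reached 100 or more in the January libraries. January values in the gaining regions ranged from 20.4 to 701 in replicate 2 and from 20.9 to 747 in replicate 3. In October 30 of them stood below 20 in both libraries, and 72 stood at 100 or more in both. The set therefore holds both regions with little signal in October and regions that were already marked then and became more so.

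**Figure D1:**
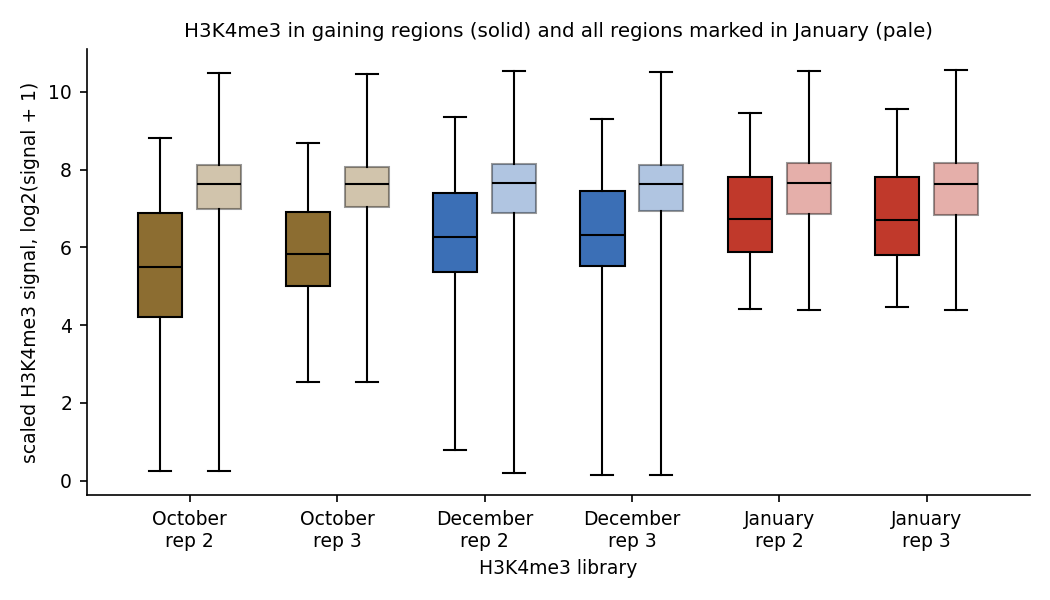
Scaled H3K4me3 signal, as log2(signal + 1), in each of the 6 libraries, for the 260 gaining regions (solid boxes) and the 11910 regions marked in January (pale boxes). Boxes span the quartiles, lines mark the medians and whiskers reach the lowest and highest regions. The solid medians stand at 44.2 and 55.6 in October and at 104 and 103 in January, while the pale ones lie between 196.9 and 199.9 throughout.

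Gains ran from 0.70 to 3.92 log2 units with a median of 1.05 and quartiles of 0.82 and 1.44. A gain of at least 1 was found in 140 regions, of at least 1.5 in 59, of at least 2 in 28 and of at least 3 in 15. The largest of them depended on 1 October library. In October replicate 2, 18 of the gaining regions stood at that library's lowest value, a scaled signal of 0.196, while in those regions replicate 3 read 7.02 to 28.7. Only 23 of the 11910 regions marked in January stood at the lowest value in replicate 2, and 0 did in replicate 3. All 10 of the largest gains, 16 of the largest 20 and 18 of the 28 gains of at least 2 belonged to these 18 regions. Measured against replicate 3 alone, the 18 gained 0.38 to 2.16 with a median of 1.17, and 14 of them reached 0.7.

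The October libraries also differed over the gaining regions as a whole. Replicate 2 stood below replicate 3 in 189 of the 260 (72.7%), against 46.1% of the regions marked in January. The median gain was 1.21 over replicate 2 and 0.84 over replicate 3. Against the higher October library of each region, 184 gained at least 0.7 and 76 did not, 80 gained at least 1, and the median gain was 0.80.

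**Figure D2:**
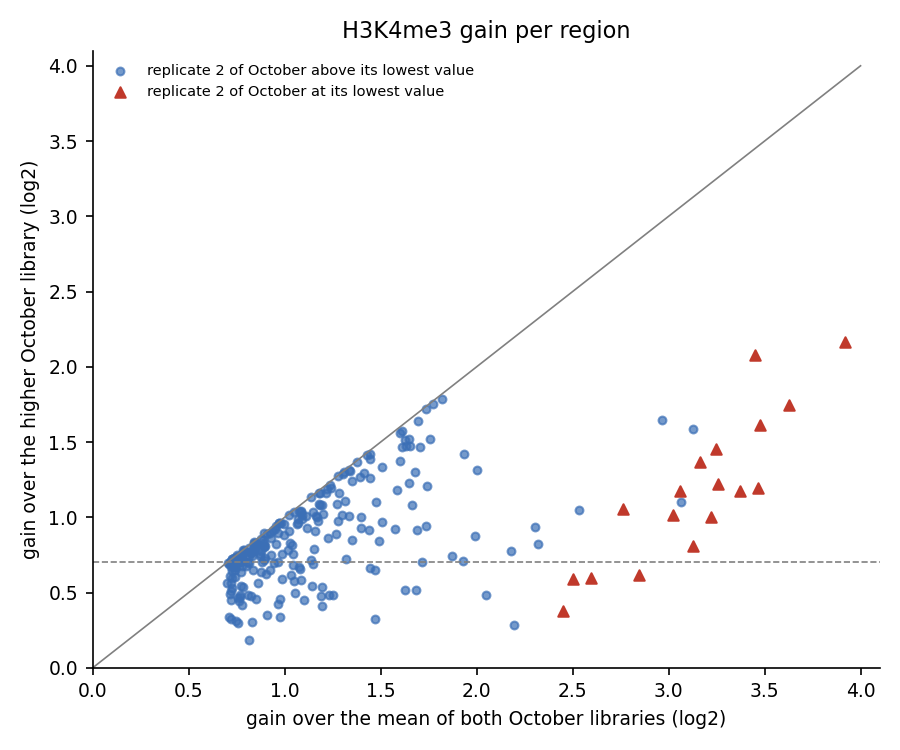
Gain of each of the 260 regions over the mean of both October libraries (horizontal axis, log2) against the gain over the higher October library (vertical axis, log2). Red triangles are the 18 regions at the lowest value in October replicate 2, the grey line marks equality and the dashed line a gain of 0.7. The triangles hold all 10 of the largest gains, yet over the higher library they lie between 0.38 and 2.16.

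The region with the largest gain, 3.92, lies on scaffold 6 at 7005557 to 7007557. Its scaled signal was 0.196 and 12.6 in October, 13.3 and 0.104 in December and 43.0 and 83.5 in January. Both libraries of a date differed widely here in October and December, and the January values stood above all of them. Its gene, at 7006056 to 7006658, was listed at 0 to 3.37 TPM with zeros at every date, and no RNA difference was called.

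A gain of 3.45 was found on scaffold 2 at 4034384 to 4036384, where the signal was 0.196 and 7.02 in October, 47.3 and 55.3 in December and 43.7 and 24.6 in January. December and January did not separate, and both stood above October. RNA of its gene read 12.3, 16.0 and 13.4 TPM in October, 29.6, 26.9 and 31.7 in December and 37.6, 37.0 and 30.4 in January. October stood below the other dates without overlap. The log2 rise from October to January was 1.28 ± 0.12 (SE, n = 3 per date; limma, Benjamini-Hochberg adjusted p = 1.09e-05).

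On scaffold 8 at 10924743 to 10926743 the signal was 0.196 and 13.4 in October, 23.4 and 21.5 in December and 33.2 and 44.3 in January, a gain of 3.25. The dates followed each other without overlap at a low level. Its gene read 22.3, 25.8 and 17.8 TPM in October, 370.1, 399 and 339 in December and 304, 305 and 304 in January. This was the largest RNA change among the 10 largest gains, 3.75 ± 0.11 log2 units from October to January (limma, adjusted p = 4.82e-09), and no further change was called after December (-0.27 ± 0.11, adjusted p = 0.0846).

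The region on scaffold 1 at 35177314 to 35179314 gained 3.48, with a signal of 0.196 and 14.8 in October, 42.4 and 61.0 in December and 52.7 and 42.7 in January. Here too December reached the January level. RNA of its gene was 1.58 ± 0.915 TPM in October, 6.84 ± 0.695 in December and 9.32 ± 1.85 in January (mean ± SD, n = 3), and October did not overlap the later dates. The log2 rise to January was 2.06 ± 0.27 (limma, adjusted p = 9.16e-05).

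Of the remaining 6 of these 10, the gene on scaffold 7 at 15047040 to 15049040 rose from 2.22 ± 0.762 to 5.47 ± 0.332 TPM by January (log2 1.03 ± 0.22, limma, adjusted p = 0.00192). Weaker calls were made on scaffold 6 at 2178325 (0.78 ± 0.28, adjusted p = 0.0345) and at 6031285 (0.31 ± 0.11, adjusted p = 0.0382), and both were lost when some single RNA libraries were left out. On scaffold 6 at 26311405 the gene stayed below the filter on low values, at 0.562 to 1.01 TPM. Neither the gene on scaffold 8 at 610810 (1.61 ± 0.596 TPM in October and 2.50 ± 0.774 in January) nor that on scaffold 1 at 11552715 (3.84 ± 1.36 and 5.46 ± 2.36 TPM) was called between October and January. The latter gene was higher in December, at 8.74 ± 0.521 TPM, without overlap with October (log2 1.05 ± 0.27, limma, adjusted p = 0.00673). From October to January, large H3K4me3 gains were thus accompanied by RNA differences that ranged from none called to a rise of 3.75 log2 units.

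Ranking by the gain over the higher October library, which was chosen after the values had been seen, brings other regions forward. On scaffold 8 at 3610130 to 3612130 the signal was 123 and 119.5 in October, 246 and 213 in December and 401 and 412 in January. The libraries of each date lay close together and the dates did not overlap. RNA of its gene read 1.12, 0.386 and 0.415 TPM in October, 27.2, 25.8 and 21.6 in December and 16.1, 13.8 and 12.7 in January. RNA was thus highest in December while H3K4me3 was highest in January, and both RNA steps were called (log2 4.00 ± 0.19 up to December, limma, adjusted p = 1.25e-07, then fell by 0.76 ± 0.19, adjusted p = 0.0125).

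On scaffold 1 at 27987009 to 27989009 the signal was 18.4 and 17.6 in October, 35.0 and 35.9 in December and 61.3 and 70.8 in January, a gain of 1.82. Its gene read 32.4, 35.8 and 37.1 TPM in October, 54.5, 55.5 and 44.8 in December and 75.4, 77.1 and 83.9 in January. Mark and RNA followed the same order of dates without overlap, and the RNA rise of 1.14 ± 0.10 log2 units had a limma adjusted p of 3.6e-06.

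Another example lies on scaffold 8 at 14296532 to 14298532, where the signal was 2.54 and 21.1 in October, 31.8 and 53.3 in December and 74.5 and 62.2 in January. RNA of its gene was 5.40 ± 0.788 TPM in October, 7.19 ± 1.40 in December and 23.7 ± 5.77 in January (mean ± SD, n = 3). January stood above both earlier dates, and the rise after December was 1.58 ± 0.21 log2 units (limma, adjusted p = 0.000286), whereas the step before it was not called (0.35 ± 0.21, adjusted p = 0.169).

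The limit of 0.7 cuts through a continuous range. Just inside it, the region on scaffold 6 at 13803656 read 21.1 and 17.2 in October and 34.9 and 28.7 in January, that on scaffold 1 at 34008989 read 154 and 153, then 229 and 275, and that on scaffold 4 at 8440346 read 293 and 300.3, then 492 and 479. Just outside it, the region on scaffold 1 at 25838113 read 309 and 282 in October and 472 and 488 in January, that on scaffold 6 at 28247106 read 57.6 and 68.8, then 104 and 101, and that on scaffold 6 at 2331492 read 29.8 and 27.9, then 38.5 and 58.3. The regions on either side of the limit covered like ranges of signal.

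All 260 regions matched exactly 1 gene by the window that the regions with an identifier follow, which takes 500 bp upstream of a gene's start and the first 1500 bp of the gene. None of the gene identifiers carries a name in the sources used here. The plus strand holds 137 of the genes and the minus strand 123. By scaffold, 258 regions lay on scaffolds 1 to 8, with 59 on scaffold 1 and 23 to 33 on each of the others, which is 1.73% to 2.58% of the regions marked in January on each of these 8. The regions were therefore spread over the genome much as the marked regions were.

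The genes were shorter than those at marked regions in general, with a median locus of 2341 bp against 2873 bp and a range of 264 to 19276 bp. In 73 of them (28.1%, against 18.0% of marked regions) the locus was under 1500 bp, so that the region runs past the gene's end and covers the whole gene. None overlapped another quantified region, and 5 (1.92%, against 3.90%) overlapped a second listed gene.

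Pairs of gaining regions within 5000 bp of each other were found at 3 places. On scaffold 8 the regions at 16150693 and 16156107 lie 3414 bp apart on the same strand, and RNA of both genes rose by January. The second of these genes read 114 ± 10.5 TPM in October, 213 ± 28.4 in December and 211 ± 7.42 in January (mean ± SD, n = 3; limma log2 0.88 ± 0.10, adjusted p = 2.26e-05). On scaffold 6 the regions at 25417462 and 25421992, 2530 bp apart, both stood low until December, at 23.5 and 41.8 in October, 24.8 and 27.2 in December and 91.3 and 101 in January for the first, and at 17.4 and 18.2, then 9.46 and 23.5, then 45.5 and 47.8 for the second. The RNA of this pair was late as well. The first gene, of 264 bp, was listed at 0 in all October libraries and read 0, 1.85 and 2.50 TPM in December and 12.2, 19.1 and 14.4 in January, and it was called higher in January than in December (limma log2 2.89 ± 0.40, adjusted p = 0.000395). Its neighbour reached 2.83 ± 0.238 TPM in January from 0.201 ± 0.231 in December (log2 1.69 ± 0.29, adjusted p = 0.00153).

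The last pair, on scaffold 2 at 26193661 and 26197195, lies 1534 bp apart, and the locus of the first gene runs into the second region. The first region had the highest January signals of all 260, at 446 and 413 in October, 659 and 631 in December and 701 and 747 in January. RNA of its gene was 68.3 ± 7.74 TPM in October, 119 ± 4.33 in December and 97.7 ± 7.34 in January. The second region read 0.587 and 23.1 in October, 52.9 and 45.7 in December and 47.2 and 54.6 in January, and its gene, at 0 to 5.15 TPM with zeros at every date, was not called. Reads of the second region may belong to the body of the first gene, and this was not tested.

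A choice of regions by low October and high January values itself favours December values between them. Both December libraries stood above both October libraries in 202 regions (77.7%, against 35.6% of the regions marked in January), and both January libraries stood above both December libraries in 182 (70.0%, against 26.3%). These counts share the October and January libraries with the selection, and nothing is read from their distance to the background. In 128 regions the 3 dates followed each other without overlap. Both December libraries lay below both October libraries in 8 regions, and above both January libraries in 12. For these 128, 8 and 12 regions the shares over all marked regions were not computed, and nothing is read from the counts.

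On the log2 scale, the share of the gain reached by December had a median of 62.9% with quartiles of 39.0% and 86.6%, after 45 of the 98 days. In 130 regions the share lay between 50% and 100%, in 65 between 0% and 50%, in 42 at 100% or more and in 23 below 0%. The median was 61.4% with December replicate 2 and 65.4% with replicate 3. It was 72.9% with the values as deposited, without scaling to the same sum.

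The highest shares were found on scaffold 3 at 21243718 (151%), scaffold 1 at 2632564 (141%) and scaffold 1 at 31428973 (141%). At the first of these the signal was 24.5 and 51.7 in October, 81.3 and 91.9 in December and 67.3 and 61.1 in January, a December peak without overlap. Its RNA rose from 38.4 ± 3.78 to 56.9 ± 2.60 TPM by December and stood at 55.0 ± 2.88 in January (mean ± SD, n = 3; limma log2 0.51 ± 0.09 from October to January, adjusted p = 0.000501). At scaffold 1, 2632564, the signal of 20.2 and 30.2 in October, 56.3 and 50.6 in December and 39.6 and 46.0 in January went with RNA of 3.02 ± 0.766, 9.99 ± 1.05 and 4.82 ± 2.19 TPM. Both measures were highest in December there, and the RNA fell again afterwards by 0.98 ± 0.26 log2 units (limma, adjusted p = 0.0157).

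The lowest shares belong to regions whose signal was lower in December than in October. On scaffold 5 at 18241443 to 18243443 the signal read 118 and 115 in October, 64.0 and 70.8 in December and 195 and 202 in January, a share of -102%. Its gene read 19.1, 16.2 and 21.7 TPM in October, 6.54, 6.08 and 3.80 in December and 40.1, 38.2 and 32.0 in January. H3K4me3 and RNA were both lowest in December and highest in January, with no overlap between dates. The RNA fell by 1.64 ± 0.18 log2 units to December (limma, adjusted p = 3.06e-05) and then rose by 2.57 ± 0.18 (adjusted p = 6.97e-06).

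On scaffold 8 at 1630881 to 1632881 the signal was 184 and 198 in October, 109.6 and 142 in December and 345 and 337 in January. RNA of its gene read 45.2, 46.1 and 49.9 TPM in October, 48.0, 57.5 and 55.5 in December and 694, 628 and 530.4 in January. The RNA step after December, 3.50 ± 0.10 log2 units (limma, adjusted p = 1.23e-07), was not accompanied by a called step before it (0.18 ± 0.10, adjusted p = 0.146). The region on scaffold 1 at 34008989 went the other way in RNA. Its signal was 154 and 153 in October, 122 and 104 in December and 229 and 275 in January, while its gene read 22.7, 19.7 and 60.2 TPM in October and 6.02, 6.17 and 23.7 in January. The libraries overlapped, the RNA decrease of -1.53 ± 0.52 log2 units had a limma adjusted p of 0.0262, and the call was lost without October replicate 3 (0.0984), January replicate 1 (0.0937) or January replicate 2 (0.0961).

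RNA was tested for 251 of the 260 genes, those with at least 1 TPM in at least 3 of the 9 libraries, with limma on log2(TPM + 1) over 18384 genes. Between October and January 185 of them rose and 8 fell, and 58 were not called at an adjusted p of 0.05. The rising share was 73.7%, against 31.7% of all genes tested, and the falling share 3.19%, against 29.4%. The median log2 change was 0.91 with quartiles of 0.39 and 1.74 and a range from -1.89 to 5.69, and the median of all genes tested was 0.03. Rises of at least 2-fold numbered 116 and falls of that size 2, where the shares over all genes tested were 6.04% and 14.1%. January libraries stood entirely above October libraries in 188 genes (34.1% over all genes) and entirely below in 7 (32%).

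These counts cover only genes that passed the filter on low values. No tested gene stayed under 1 TPM in every library of both other dates, and 6 stayed under 1 TPM throughout October. Without the filter 259 genes entered the fit, 186 of them rose and 7 fell, and the median change was 0.87.

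In level, the median gene at a gaining region stood at 13.9 TPM in October, 31.8 in December and 36.6 in January, whereas genes at all regions marked in January had medians of 29.0, 30.2 and 31.4 TPM. Genes of 10 TPM or more numbered 143 in October, 177 in December and 198 in January. The date of the highest mean was January for 158 of the tested genes, December for 73 and October for 20, while over all tested genes these shares were 32.8%, 26.2% and 41.0%. The genes at gaining regions thus began below the typical marked gene and ended slightly above it.

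Genes at all regions marked in January included 36.7% that rose and 26.0% that fell, with a median change of 0.09. Under the mirrored rule for a loss, 1204 regions were found, and 756 of 998 tested genes at them fell and 29 rose, with a median change of -1.11. Across all unlabelled regions with a signal, the share of genes called higher was 49.3% at an H3K4me3 change of 0 to 0.3 log2 units, 71.5% at 0.3 to 0.7, 68.0% at 0.7 to 1.5 and 62.5% at 1.5 or more. In these bins the rising share did not go on increasing beyond an H3K4me3 change of 0.3. The median RNA change was 0.57 at 0.3 to 0.7, 0.74 at 0.7 to 1.5 and 0.57 at 1.5 or more. The bins from 0.7 upwards also hold regions outside the gaining set. At 1.5 or more the bin holds 80 tested genes, whereas the gaining regions hold 54, of which 72.2% rose. The gaining regions alone had rising shares of 73.7% at gains of 0.7 to 1 and 74.7% at 1 to 1.5. The shares of the bins from 0.7 upwards were thus lowered by the regions outside the gaining set. At changes below -1.5 the share called lower was 79.0%.

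**Figure D3:**
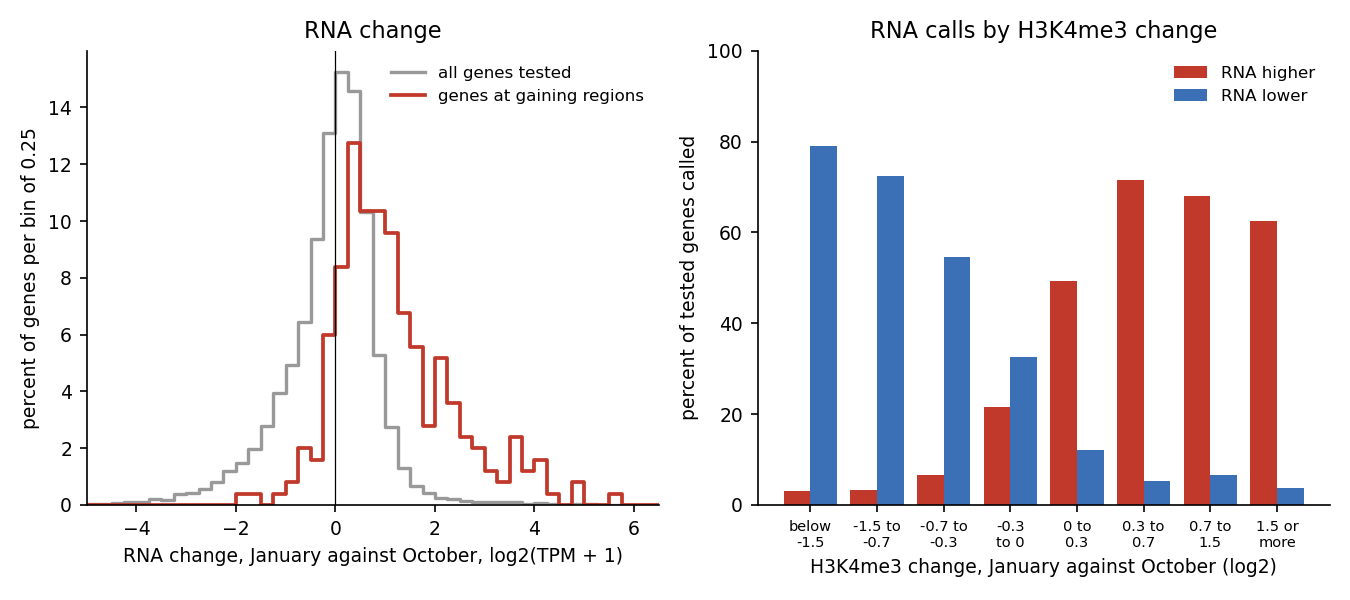
Left, RNA change from January against October in log2(TPM + 1), as the percent of genes per bin of 0.25, for the 251 tested genes at gaining regions (red) and all 18384 genes tested (grey); the medians are 0.91 and 0.03. Right, percent of tested genes called higher (red) or lower (blue) in RNA by the H3K4me3 change of their region, over all unlabelled regions with a signal. The bars for higher RNA reach 71.5% at 0.3 to 0.7 and 62.5% at 1.5 or more, and the bins from 0.7 upwards also hold regions outside the gaining set.

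Within the gaining regions the rising share likewise did not increase with the size of the gain. It was 73.7% of 118 tested genes at gains of 0.7 to 1, 74.7% of 79 at 1 to 1.5 and 72.2% of 54 at 1.5 or more. Median RNA changes at these gains were 0.78, 1.08 and 0.98. Over the 251 genes Pearson's r between gain and RNA change was 0.03 and Spearman's rho 0.12, and with the gain over the higher October library they were 0.32 and 0.34. Without the regions at the lowest value of October replicate 2, which left 234 genes, r was 0.17 and rho 0.20 for the gain. For the gain over the higher October library they were then 0.37 and 0.35. These describe genes measured in the same libraries and are not tests. At the regions that stood at the lowest value of October replicate 2, 10 of 17 tested genes rose and 1 fell with a median change of 0.48, against 175 and 7 of 234 and a median of 0.93 in the rest. Among the 184 regions that gained over the higher October library, 139 of 178 tested genes rose and 4 fell, with a median change of 1.08, and among the other 76 it was 46 and 4 of 73, with a median of 0.51.

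By October level, the rising share was 63.0% of 27 tested genes where the higher October signal was under 20, 70.5% of 78 at 20 to 50, 71.4% of 63 at 50 to 100 and 81.9% of 83 at 100 or more. The median RNA changes in these classes were 0.64, 0.79, 0.89 and 1.17. At the median, the RNA change was thus larger where the higher October signal was larger. Of the 30 regions in the class under 20, 12 stood at the lowest value of October replicate 2. The classes differ in signal depth too, and log2(TPM + 1) understates the changes of low genes. What part each of these had in this order was not tested.

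The largest RNA rise belongs to the region on scaffold 1 at 38213589 to 38215589, whose gene PRUPE_ppa026811mg lies on the minus strand at 38214360 to 38215089. It read 0.563, 0.343 and 1.09 TPM in October, 16.0, 20.5 and 19.2 in December and 95.9, 76.7 and 79.6 in January. The gene was almost silent in October and rose in each interval, and the libraries of the 3 dates did not overlap. From October to January the change was 5.69 ± 0.18 log2 units (limma, adjusted p = 5.73e-09), divided into 3.57 up to December and 2.12 after it. H3K4me3 stood at 7.05 and 55.5 in October, 46.0 and 52.1 in December and 79.5 and 115 in January. Here October replicate 3 exceeded both December libraries, so only January separated from October.

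The next, on scaffold 3 at 21496376 to 21498376, holds gene PRUPE_ppa015338mg at 21496409 to 21497876. RNA read 3.63, 5.16 and 3.25 TPM in October, 81.5, 103 and 79.7 in December and 139, 170.5 and 148 in January. The signal was 163 and 153 in October, 309.6 and 299 in December and 374 and 375 in January. Both measures separated all 3 dates, with the larger step first. The RNA change to January was 4.95 ± 0.15 log2 units (limma, adjusted p = 5.04e-09), and the smaller step after December, 0.79 ± 0.15, was also called (adjusted p = 0.00267).

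On scaffold 4 at 2374349 to 2376349 RNA read 22.8, 30.7 and 20.8 TPM in October, 636, 767 and 719 in December and 762, 668 and 775 in January. The rise of 4.85 ± 0.13 log2 units (limma, adjusted p = 2.99e-09) was reached by December, and January did not separate from December (0.06 ± 0.13, adjusted p = 0.766). H3K4me3 went on from 141 and 147 in October through 243 and 211 in December to 333 and 349 in January. The mark therefore stood higher in January than in December without a called RNA difference.

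The next region, on scaffold 8 at 16150693 to 16152693, is the first of a neighbouring pair. Its gene read 31.5, 29.3 and 45.5 TPM in October, 549, 604 and 469 in December and 788, 739 and 657 in January. Its signal was 67.1 and 51.9, then 97.6 and 92.8, then 151 and 174. The RNA change to January was 4.34 ± 0.15 log2 units (limma, adjusted p = 1.13e-08). The step after December, 0.43 ± 0.15, was not called (adjusted p = 0.0505), although all January RNA libraries stood above those of December.

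On scaffold 2 at 9424159 to 9426159 RNA was 6.38 ± 1.35 TPM in October, 80.7 ± 14.6 in December and 137 ± 31.7 in January (mean ± SD, n = 3), and the signal was 103 and 89.4, then 195 and 191, then 228 and 212. Most of both changes was made by December. The log2 RNA change to January was 4.22 ± 0.19 (limma, adjusted p = 4.86e-08).

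The region on scaffold 1 at 29119703 to 29121703 was later. Its gene read 47.8, 47.1 and 41.2 TPM in October, 149, 155 and 192 in December and 966, 815 and 761 in January. H3K4me3 was 115 and 124 in October, 186 and 193 in December and 354 and 429 in January, so that December held 38.8% of its gain. In both assays the larger step came after December. RNA rose by 1.83 ± 0.11 log2 units and then by 2.36 ± 0.11 (limma, adjusted p = 5.49e-07 and 7.66e-07).

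On scaffold 2 at 22574251 to 22576251 RNA was 4.14 ± 0.644 TPM in October, 51.3 ± 3.12 in December and 89.1 ± 1.61 in January, and the signal 47.6 and 59.0, then 96.3 and 89.2, then 113 and 128. The dates did not overlap in either assay, and the RNA change to January was 4.14 ± 0.11 log2 units (limma, adjusted p = 2.78e-09). The region on scaffold 4 at 9602605 to 9604605 differed in its end. Its RNA read 2.13, 2.25 and 3.57 TPM in October, 67.3, 71.8 and 74.2 in December and 50.6, 42.6 and 105 in January, and its signal was 37.4 and 52.2, then 94.5 and 108, then 83.9 and 97.9. Neither measure separated January from December, and the RNA change from October to January was 4.11 ± 0.28 log2 units (limma, adjusted p = 8.88e-07).

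**Figure D4:**
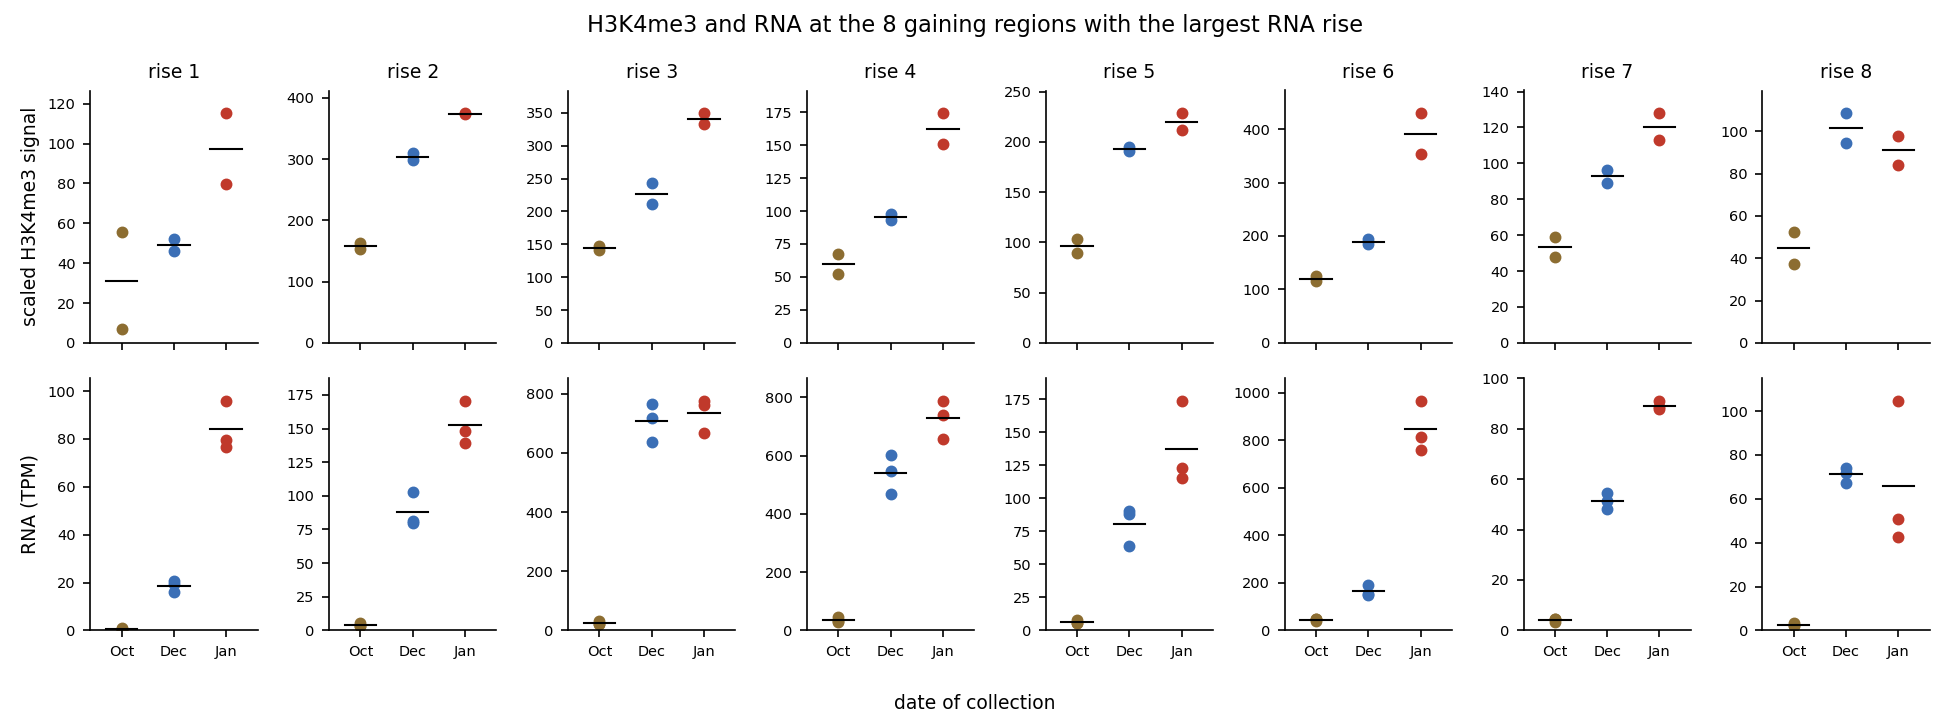
Scaled H3K4me3 signal (top row) and RNA in TPM (bottom row) at the 8 gaining regions with the largest RNA rise, in the order of the text from left to right, by date of collection. Points are libraries (2 for H3K4me3, 3 for RNA) and black lines date means, and each panel has its own axis from 0. In all 8 the October RNA libraries lie below those of December and January, and the sixth, on scaffold 1 at 29119703, is the one with the largest step after December, from 165 to 847 TPM.

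Of the 8 genes that fell while their region gained H3K4me3, the 4 largest falls with separate libraries were these. On scaffold 8 at 14884335 to 14886335 the gene PRUPE_ppa005173mg read 72.0, 68.3 and 76.1 TPM in October, 56.0, 49.2 and 39.3 in December and 16.9, 19.7 and 19.7 in January. The signal in its region was 46.2 and 48.7 in October, 59.4 and 71.8 in December and 81.7 and 89.7 in January. RNA fell in each interval while the mark stood higher at each date, with no overlap in either assay. The RNA change to January was -1.89 ± 0.12 log2 units (limma, adjusted p = 6.57e-07).

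On scaffold 3 at 3406418 to 3408418 the gene PRUPE_ppa026987mg read 6.64, 5.56 and 7.50 TPM in October, 2.37, 2.91 and 2.44 in December and 3.06, 3.34 and 4.24 in January. Its region is one of those at the lowest value in October replicate 2, with 0.196 and 16.0 in October, 12.3 and 15.7 in December and 28.7 and 20.9 in January, and it gained 0.59 over the higher library. The RNA change of -0.74 ± 0.18 log2 units (limma, adjusted p = 0.00438) was not called after quantile normalization (adjusted p = 0.110).

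On scaffold 1 at 41053353 RNA fell from 76.5 ± 6.37 TPM in October to 46.7 ± 2.22 in December and 45.6 ± 1.82 in January (mean ± SD, n = 3; limma log2 -0.73 ± 0.08 to January, adjusted p = 2.08e-05), while the signal read 11.2 and 26.8, then 38.3 and 54.0, then 49.7 and 40.6. Both changes were made by December, in opposite directions. On scaffold 1 at 10636333 RNA fell from 101 ± 17.6 to 67.9 ± 3.55 TPM by January (log2 -0.55 ± 0.12, adjusted p = 0.00254), with a signal of 20.0 and 37.3 in October and 52.8 and 41.0 in January.

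Divided at December, the RNA of the 251 genes rose in 164 and fell in 20 between October and December, where 28.9% and 31.6% of all genes tested did. The median change was 0.63 log2 units, and 89 rises and 6 falls reached 2-fold (5.74% and 12.8% over all genes). The libraries stood entirely above October in 166 genes and entirely below in 24, against 32.2% and 35.4% over all genes. Between December and January 95 rose and 30 fell, against 18.5% and 14.5%, with a median of 0.25. Of these, 37 rises and 6 falls reached 2-fold (2.61% and 2.94% over all genes). January stood entirely above December in 114 genes and entirely below in 39, against 25.2% and 20.7%. The 3 comparisons share libraries and are not independent of each other.

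The RNA course sorted the genes into classes, and the H3K4me3 share reached by December, which comes from other libraries, differed between them. How many of all tested genes fall in each class was not computed, and the class sizes are not read as a result. In the 80 genes whose RNA rose by December and was not called afterwards, the median share was 74.6% (quartiles 56.0% and 101%). In the 25 whose RNA rose only after December by the same calls it was 45.4% (16.8% and 76.0%), and in the 57 that rose in both intervals 46.7% (27.9% and 65.2%). RNA that rose by December and fell afterwards was found in 27 genes, with a median share of 77.3%, and RNA that fell and then rose in 13, with 38.4%. At the median, regions whose RNA rose by December only had thus gained more of their H3K4me3 by then than regions whose RNA rose after December only. These 2 classes kept that order with either December library alone, at 70.8% and 41.4% with replicate 2 and 79.0% and 55.6% with replicate 3, and with the values as deposited, at 85.5% and 56.7%. The order of other classes did not hold throughout, since the class that fell and then rose stood at 61.8%, above the late class, with replicate 3.

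The remaining classes were not ordered in this way. The 9 genes whose RNA fell in either interval and rose in neither had a median share of 76.9%, the 40 called in neither interval one of 65.9%, and the 9 not tested one of 58.6%. Among the 116 genes with an RNA rise of at least 2-fold by January, the median share reached by December was 74.2% for RNA (quartiles 48.2% and 98.8%) and 55.9% for H3K4me3 (38.0% and 74.2%). Across these genes the 2 shares had a Pearson's r of 0.46 and a Spearman's rho of 0.49, a description over genes of the same libraries. No test of these differences was made, since the H3K4me3 share uses the libraries that chose the regions.

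**Figure D5:**
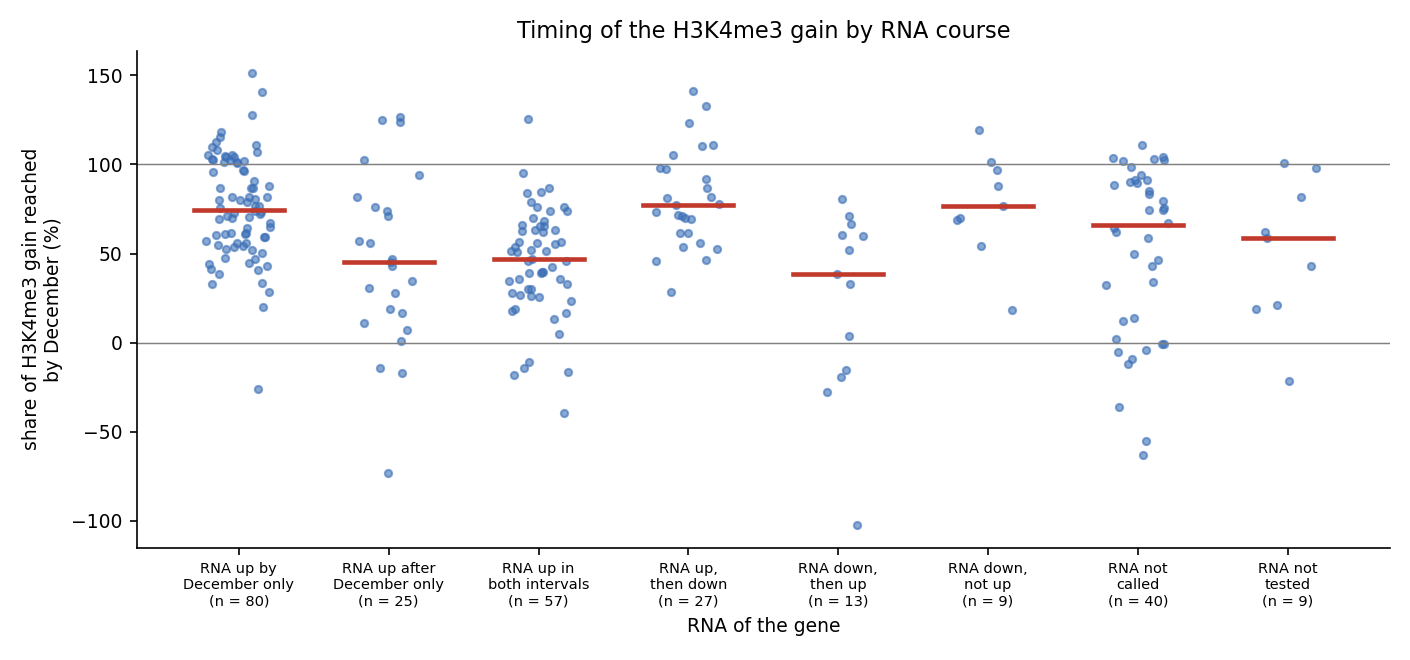
Share of the October to January H3K4me3 gain reached by December (percent, vertical axis) for each gaining region, by the RNA course of its gene, with the number of genes under each class. Points are regions and red lines class medians, and grey lines mark 0% and 100%. The median is 74.6% where RNA rose by December only and 45.4% where it rose after December only.

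For 9 of the 260 regions the gene stayed below the filter, with 1.78 TPM as the highest value in any library. At all regions marked in January 398 of 11904 genes stayed below it, a similar share. Of the 260 genes, 1 was listed at 0 in all RNA libraries. The median January signal of the 9 regions was 46.3. The strongest of them, on scaffold 6 at 8231489 to 8233489, read 58.5 and 76.4 in October, 81.0 and 91.4 in December and 126 and 115 in January, while its gene was listed at 0 in 8 libraries and at 0.0819 TPM in a December one. The mark was thus well above 20 beside a gene with almost no RNA.

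The same held on scaffold 8 at 13204165, where the signal was 36.6 and 52.0, then 69.5 and 71.3, then 93.0 and 104, and RNA was at most 0.340 TPM. On scaffold 1 at 4683721 to 4685721 the signal was 25.6 and 26.3 in October, 40.1 and 28.7 in December and 82.2 and 101 in January, a gain with October libraries close together. Its gene was listed at 0 in October and at 0.249 to 0.886 TPM later. On scaffold 7 at 17979899 the signal was 1.96 and 22.2, then 0.739 and 17.4, then 48.8 and 45.1, so that replicate 2 was near its lowest value at both earlier dates, and RNA did not exceed 0.353 TPM. Whether unlisted transcripts start in these regions was not tested.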

How the data were processed

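RNA and H3K4me3 were measured in the same frozen, ground buds, and groups were taken from the labels. RNA is used in TPM, the unit the authors deposited (TopHat and Picard are named for it in the submitters' processing notes). For H3K4me3 the authors deposited a normalised signal that the file headers call TMM. Bowtie2, DiffBind, FastQC, Picard and Trimmomatic are named for it in the submitters' processing notes. The sources used here give no versions, no genome build and no word on whether a control was subtracted. Every signal value was a whole multiple of 1 step per library (100% within 0.01), and the numbers of steps are called recovered reads. The lowest value of a library is 1 step, and whether it stands for 1 read is unknown. The depth behind TPM is unknown, and no counting intervals are given.

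The 6 signal columns were scaled to the same sum (factors 0.915 to 1.11), and regions were chosen and joined to genes as the report states. RNA was tested with limma 3.58.1 in R 4.3.3 (intensity trend, log2(TPM + 1), all 9 libraries in 1 fit, date as the factor, two-sided, Benjamini-Hochberg adjustment over 18384 genes, called at 0.05). Fold changes on this scale understate those of low genes. H3K4me3 in the chosen regions is described in the report without a test. As an added alternative, edgeR 4.0.16 (quasi-likelihood) on the recovered read counts of 15360 regions called 2582 higher and 2401 lower in January than in October. That fit included the 260 chosen regions and called 188 of them higher, against 16.8% of all regions in it. The same values had selected these regions, so nothing is read from this count. Python 3.11.15 was used for the rest.

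Named regions are the 10 largest gains, the 8 largest RNA rises and 4 largest falls (called, without overlap, at least 5 TPM at the higher date), the 4 strongest untested ones, the 3 highest and 3 lowest shares by December, 3 regions on either side of the gain limit and pairs within 5000 bp. Regions, lists and tests were chosen with earlier results of these data known. The ranking over the higher October library and the subsets by October library were chosen after the values had been seen. Of 29449 gene identifiers 0 matched the RefSeq table of 37283 sweet cherry genes, so at most 2 rising and 2 falling identifiers are given. Same-numbered RNA replicates did not deviate together, so no pairing was used.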

Additional observations from a re-analysis of the deposited data

How the results depend on the processing

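The number of gaining regions was 508 at a minimum gain of 0.5 and 140 at a gain of 1. It lay between 212 and 404 when 1 H3K4me3 library was left out, the highest without October replicate 3 and the lowest without October replicate 2. With values as deposited it was 317, and the median share reached by December was 72.9% (61.4% to 65.4% with 1 December library left out).

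Leaving out 1 RNA library at a time, 177 to 189 genes rose and 5 to 11 fell from October to January, with a median of 0.86 to 0.96. Only 5 fell without October replicate 3 or without January replicate 1. From October to December 152 to 163 rose and 15 to 20 fell (median 0.59 to 0.66), and from December to January 82 to 98 rose and 22 to 33 fell (median 0.19 to 0.30). With a pseudocount of 5 TPM the medians from October were 0.69 to January and 0.50 to December, and after quantile normalization the latter was 0.76.

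With regions gaining at least 1, 98 genes rose and 3 fell to January (median 1.03), 83 and 10 to December, and 57 and 13 after December (median 0.40). With a signal of 50 or more, 154 rose and 4 fell to January (median 1.07), and 137 and 11 to December. For regions gaining over the higher October library, 139 rose and 4 fell to January (median 1.08), and 119 and 12 to December. Their median after December was 0.39. For regions chosen without October replicate 2, 164 rose and 6 fell to January (median 1.08), and 143 and 12 to December (median 0.75). Chosen without October replicate 3 (404 regions), 257 rose and 20 fell to January (median 0.72), and 220 and 45 to December (median 0.51). Without January replicate 3 the median to January was 0.78. In all of these, rises outnumbered falls. Over all genes tested in the main fit, 5832 rose and 5402 fell to January, 5311 and 5806 to December, and 3397 and 2659 after December.

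The numbers of the RNA replicates did not pair the samples (deviations of same-numbered libraries correlated at -0.0857 to 0.1053). With the replicate number as a block, 185 rose and 8 fell to January, 161 and 18 to December, and 91 and 30 after December. At scaffold 6, 7005557, the uncalled RNA change of -0.25 ran from -0.71 without January RNA replicate 2 to 0.46 without October RNA replicate 3. The cause was not tested. With 2 H3K4me3 libraries per date, a gain that rests on 1 October library cannot be checked further.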

Other observations

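Beyond the 260 regions, 58 of the 671 regions of this length that carry a gene identifier met the same numerical conditions, as did 17 of the 2158 unlabelled regions longer than 2000 bp. The counts of regions gaining and losing under mirrored rules were 260 and 1204 with libraries scaled to the same sum. They were 317 and 1050 with the values as deposited, and 282 and 1144 with library medians aligned. By these rules losing regions outnumbered gaining ones under each scaling. How many regions could meet the rule for a loss is not given, so shares cannot be compared. The edgeR fit on the recovered reads of 15360 regions called 2582 higher and 2401 lower in January than in October. No net loss of the mark is therefore read from the rule counts.

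Further neighbours among the gaining regions did not all move alike in RNA. On scaffold 1 the regions at 1492184 and 1507360 lie 13176 bp apart, and RNA rose at both from October to January (limma log2 2.40 and 3.96, adjusted p = 1.22e-07 and 3.53e-09). On scaffold 7 the regions at 20672725 and 20685945 lie 11220 bp apart, and RNA fell at the first and rose at the second (limma log2 -0.98 and 0.69, adjusted p = 0.0166 and 0.00929). These pairs were named after their values had been seen.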
